A study of Mus musculus with 24 samples.

Results

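The mRNAs of 8 decapping and 5' decay factors were followed through the maternal-to-zygotic transition of the mouse: Dcp1a, Dcp1b, Dcp2, Edc3, Edc4, Xrn1, Xrn2 and Upf1. They were chosen by symbol, for their known roles, and make up 8 of the 55471 annotated genes. Each symbol matched a single gene of the annotation. In SLIM-seq, a low-input immunoprecipitation (IP) of RNA with N6-methyladenosine (m6A), 3 IP and 3 input libraries were made from each of MII oocytes, late 1-cell embryos (L1C) and late 2-cell embryos (L2C), 18 libraries in all. In the knockdown experiment, zygotes received Cas13d mRNA with 3 crRNAs against Ythdc1 (KD) or Cas13d mRNA without crRNAs (Ctrl), and RNA was sequenced at L2C in 3 libraries per group. Ythdc1 encodes a nuclear m6A reader. All samples came from wild-type B6D2F1 mice, with oocytes and zygotes taken from superovulated females aged 8 weeks, so that the groups differ in stage or injection and not in genotype. The L2C embryos of the SLIM-seq experiment were not injected, and the control of the knockdown has Cas13d without a non-targeting crRNA. The labels do not say whether the replicates came from separate females or pools, so p-values measure the spread between these libraries, part of which may be technical.

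Positions are on GRCm38. Dcp1a (ENSMUSG00000021962) lies at chr14:30479535-30527063 and Dcp1b (ENSMUSG00000041477) at chr6:119175253-119221616. Dcp2 (ENSMUSG00000024472) is at chr18:44380502-44424969. Edc3 (ENSMUSG00000038957) is at chr9:57708540-57752499, and Edc4 (ENSMUSG00000036270) at chr8:105880881-105894908. Xrn1 (ENSMUSG00000032410) covers chr9:95954760-96057803, and Xrn2 (ENSMUSG00000027433) chr2:147012996-147078000. These 7 genes are on the plus strand, and Upf1 (ENSMUSG00000058301) is on the minus strand at chr8:70331525-70353278. The SLIM-seq counts were assigned to whole gene spans, introns included, and reads in overlapping spans were divided between genes. Dcp2 and Xrn2 overlap no other gene. The span of Edc3 overlaps that of Clk3 on the other strand, that of Edc4 overlaps Nrn1l on its own strand, and that of Upf1 overlaps Cers1 and Gdf1. Dcp1a and Dcp1b overlap the calcium channel genes Cacna1d and Cacna1c on the other strand, and Xrn1 overlaps 4 noncoding genes, 3 of them annotated as antisense.

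The cap at the 5' end protects an mRNA. Its removal by Dcp2, the catalytic subunit of the decapping complex, opens the body of the transcript to Xrn1, the cytoplasmic 5' to 3' exonuclease. Dcp1a and Dcp1b are paralogous partners that activate Dcp2, Edc3 and Edc4 are enhancers and scaffolds of the complex, Xrn2 is the nuclear counterpart of Xrn1 and acts in transcription termination and RNA processing, and Upf1 is the RNA helicase at the centre of nonsense-mediated decay. The mRNAs of Dcp1a and Dcp2 are known to be stored in growing oocytes and translated during meiotic maturation, ahead of the clearance of maternal RNA. m6A is read by proteins that can direct transcripts to decay.

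The consensus core of m6A sites is often written GGACT. It was searched on the mRNA strand of 1 transcript per gene, within 200 bases of the stop codon and over the whole transcript. None of the 8 genes has GGACT within 200 bases of its stop codon, where 36% of 21683 protein-coding transcripts have it, and all 8 have it elsewhere, as do 87.2% of transcripts. Per kilobase, Dcp1a had the lowest density, with 1 site in 5576 bases (percentile 13 of all transcripts), and Edc3 and Edc4 the highest (6 and 5 sites, percentiles 52.1 and 51.8). The site nearest to the stop codon is shown for 4 of the genes whose IP signal departs from input at L2C in the results that follow, leaving out Edc3, whose reads are split with Clk3, with GGACT in capitals inside a window of 21 transcript bases.
Dcp1a, 3' untranslated region, chr14:30525930-30525950, plus strand: ctccgtccGGACTgtccacag
Edc4, coding sequence, chr8:105888030-105888125 across an intron, plus strand: gcccacgaGGACTtcacattt
Xrn1, coding sequence, chr9:96045502-96045522, plus strand: gcctcatgGGACTaacgagtt
Upf1, coding sequence, chr8:70334704-70334724, minus strand: cgggagaaGGACTtcatcatt
The GGACT shown starts 2634 bases past the start of the stop codon in Dcp1a and 2593, 853 and 824 bases before it in Edc4, Upf1 and Xrn1. The letters describe the transcripts, and no single-base m6A calls were analysed here.

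The crRNAs of the knockdown are shown because any match of theirs to a decay gene would bear on the KD comparison. Each matches the coding sequence of Ythdc1 on chromosome 5 without a mismatch, and the reverse complement of each has at least 6 and at most 10 mismatches at its best position in the transcripts of the 8 genes (24 pairs).
crRNA 1, target at chr5:86817026-86817048: cctcattctcagtgttgttgccc
crRNA 2, target at chr5:86815667-86815689: aattcatcatcctgttctggtac
crRNA 3, target at chr5:86816772-86816908 across an intron: ctctcagaaccatctggtgtagg

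The SLIM-seq libraries held 11107421 to 39739950 estimated counts. The merged knockdown table held 25739 genes and 3276715 to 5463868 counts per library, and included only Dcp1b and Xrn2 of the 8 genes. A set of 5 libraries (KD 1 and 2, Ctrl 1 to 3) also had counts over the whole annotation, 8696476 to 14500548 each, and were used for the other 6 genes. Ythdc1 was lower in every KD library, at 523, 541 and 519 CPM (counts scaled to a common library total) in the merged table against 1080, 1098 and 994 CPM in Ctrl, 2.01-fold lower (adjusted p = 1.34e-10). Oocyte markers (6 genes) summed to 8540 to 9900 CPM in MII inputs and 951 to 1070 CPM in L2C inputs, and 2-cell embryo markers (6 genes) to 1.92 to 2.67 and 441 to 613 CPM. Cumulus cell markers (6 genes) summed to 6.43 to 7.7 CPM at MII, 6.94 to 7.51 at L1C and 244 to 264 at L2C, where 1 gene, Amhr2, gave 242 CPM or more and the cumulus gene Ptx3 was at 0 in every library. In the knockdown, oocyte markers summed to 1620 to 1800 CPM in Ctrl and 826 to 913 in KD, 2-cell markers to 852 to 910 and 214 to 243, and cumulus markers to 24.1 to 31.9 and 37.4 to 40.5. The part of these shifts in the changes given for the 8 genes was not tested.

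The inputs were used to ask which decay mRNAs an oocyte holds and how these change up to the 2-cell stage. Levels of different genes were compared per kilobase of annotated exon, as CPM of the library total. In MII oocytes Dcp1a was the most abundant of the 8, at 254 ± 14.2 CPM per kilobase (SD, n = 3), the 99.4th percentile of protein-coding genes. Edc4 followed at 179 ± 5.81 CPM per kilobase and Xrn2 at 37.1 ± 3.97. Dcp2, the enzyme itself, stood at 9.56 ± 0.81 CPM per kilobase. Upf1, Xrn1, Dcp1b and Edc3 were lower still, at 2.92, 1.29, 0.889 and 0.106 CPM per kilobase, and no neighbours in this order overlapped. The order was the same at L1C, but there the ranges of Xrn2 and Dcp2 overlapped, as did those of Upf1 and Xrn1. At L2C the lead was shared by Edc4 (17.8 ± 1.85 CPM per kilobase) and Xrn2 (17 ± 2.22), whose ranges overlapped. Dcp2 (10.7 ± 1.45) and Dcp1a (8.90 ± 0.46) came next and overlapped too, followed by Upf1, Xrn1, Edc3 and Dcp1b at 2.61, 2.27, 1.21 and 0.0582 CPM per kilobase. Dividing by exon length assumes that reads fall on exons. In the TPM values deposited by the authors, which divide by the whole gene span, Edc4 and not Dcp1a was highest at MII, at 591 ± 16.1 TPM against 365 ± 28.2, and at L1C, at 161 ± 31.6 against 91 ± 6.86. Dcp2 was above Xrn2 in TPM at L1C (33.7 against 11.6). At L2C, Edc4 led alone at 31.9 ± 2.68 TPM, followed by Dcp2 (9.44), Dcp1a (6.96) and Xrn2 (4.70), so the place of Xrn2 depends on the length used. Ctrl embryos of the knockdown, of the same stage, gave another order in exonic counts per kilobase. There Upf1 led at 96.1 ± 10.9 CPM per kilobase (SD, n = 3), followed by Xrn2 (24.8), Dcp2 (17.3), Dcp1a (4.21) and Xrn1 (3.20). Edc4 stood at 1.69, above only Dcp1b (0.161) and Edc3 (0.0666).

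**Figure D1:**
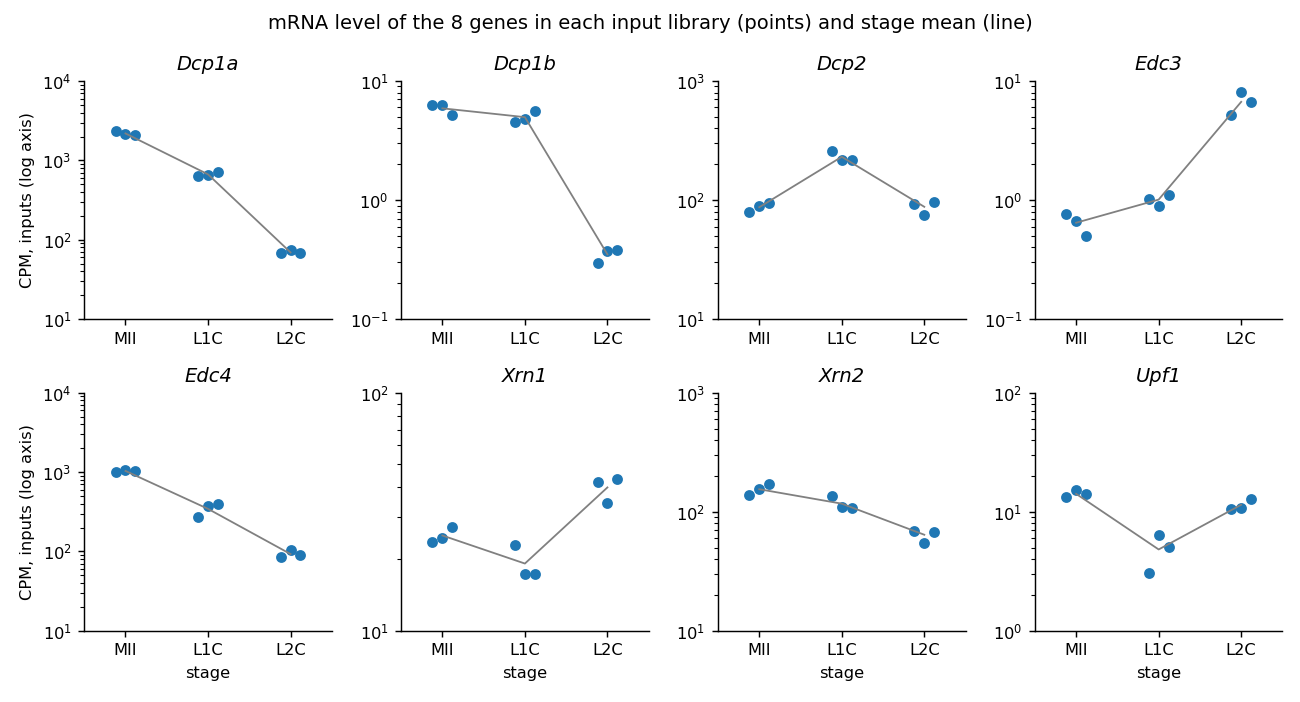
Levels of the 8 genes in the SLIM-seq inputs, in CPM scaled over the 9 inputs on a log axis, at MII, L1C and L2C. Points are the 3 libraries of a stage and lines join the means. Dcp1a, Dcp1b, Edc4, Xrn2 and Upf1 end below their MII points, Edc3 and Xrn1 above them, and Dcp2 peaks at L1C.

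From MII to L1C, 1 of the 8 mRNAs rose (Dcp2) and 5 fell (Dcp1a, Edc4, Xrn1, Xrn2, Upf1), while 31.4% of all 15239 protein-coding genes tested rose and 27.6% fell. From L1C to L2C, 3 rose (Edc3, Xrn1, Upf1) and 5 fell, against 44.2% and 39.4% of protein-coding genes. Between MII and L2C, 2 were higher (Edc3, Xrn1) and 4 lower (Dcp1a, Dcp1b, Edc4, Xrn2), against 46.7% and 38.4%. These counts take Edc3 as deposited. With Edc3 summed with Clk3, whose span it overlaps, 6 fell up to L1C, 2 rose from L1C to L2C, and 1 was higher and 5 lower at L2C than at MII. The median log2 change of the 8 was -0.40, -1.13 and -0.79 in these comparisons, beside 0.09, 0.15 and 0.29 for protein-coding genes. All levels are relative to the RNA sequenced, so fewer copies of a gene per embryo and more RNA of other genes cannot be told apart. The study's methods describe cDNA primed with oligo-dT, so levels may also depend on poly(A) tails, which were not measured.

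Dcp2, whose product removes the cap, was highest at L1C. Its input level was 79.2, 88.4 and 93.7 CPM at MII, 258, 218 and 217 CPM at L1C and 93.1, 74.3 and 96.1 CPM at L2C. The 3 L1C libraries lay above all others, and the MII and L2C libraries overlapped. Its log2 change was 1.41 ± 0.13 (SE, adjusted p = 1.07e-06) from MII to L1C and -1.40 ± 0.13 (adjusted p = 2.13e-07) from L1C to L2C. Between MII and L2C it was 0.01 ± 0.13 (adjusted p = 0.928), with estimates of -0.07 to 0.11 when any input was left out.

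Dcp1a, the partner that activates Dcp2, fell at each step. It had 2323, 2152 and 2086 CPM at MII, 629, 652 and 721 CPM at L1C and 67.5, 73.3 and 67.3 CPM at L2C. No libraries of different stages overlapped, and from MII to L2C the level dropped 31.5-fold. The log2 change was -1.71 ± 0.11 (adjusted p = 2.33e-08) up to L1C and -3.27 ± 0.12 (adjusted p = 9.73e-12) from there to L2C. Over the whole interval, 1% of protein-coding genes had a change as low or lower.

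Dcp1b, its paralog, was a rare mRNA throughout, and its fall came late. Its level was 6.28, 6.24 and 5.18 CPM at MII, 4.52, 4.76 and 5.64 CPM at L1C and 0.297, 0.373 and 0.38 CPM at L2C. The MII and L1C libraries overlapped, and all L2C libraries, with 8 to 15 counts each, were below them. The log2 change was -0.25 ± 0.21 (adjusted p = 0.319) up to L1C and -3.79 ± 0.26 (adjusted p = 5.72e-09) from L1C to L2C. Summed with Cacna1c, the gene it overlaps, the fall from L1C to L2C was smaller, at -2.28 ± 0.21 (adjusted p = 1.39e-07), as was that from MII to L2C (-2.34 against -4.04 for Dcp1b alone).

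Edc4, the large scaffold of the decapping complex, followed Dcp1a. It had 1000, 1069 and 1029 CPM at MII, 268, 373 and 391 CPM at L1C and 84.3, 104 and 89.6 CPM at L2C. The stages did not overlap, and the fall was 3.01-fold up to L1C and 3.71-fold from L1C to L2C. In log2 these were -1.59 ± 0.15 (adjusted p = 7.47e-07) and -1.89 ± 0.15 (adjusted p = 2.15e-08).

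Edc3, the other enhancer, was called higher at L2C, but this count depends on how reads are split with Clk3. Its level was 0.762, 0.67 and 0.504 CPM at MII, 1.02, 0.895 and 1.11 CPM at L1C and 5.23, 8.13 and 6.7 CPM at L2C. The L2C libraries lay above the others, and the log2 change from L1C was 2.72 ± 0.27 (adjusted p = 2.9e-07). Clk3, which shares the interval on the other strand, averaged 190, 119 and 131 CPM at these stages, and Edc3 at MII rested on 9 to 18 counts. With both genes summed, the log2 change from MII to L1C was a called fall of -0.66 ± 0.12 (adjusted p = 0.000393), where Edc3 alone was at 0.63 ± 0.32 (adjusted p = 0.111) with each L1C library above MII. The sum changed by 0.19 ± 0.12 from L1C to L2C (adjusted p = 0.156) and turned to -0.47 ± 0.12 between MII and L2C (adjusted p = 0.00237). The direction of Edc3 itself is therefore uncertain.

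Xrn1 and Xrn2, the exonucleases, ended in opposite places. Xrn1 had 23.7, 24.4 and 27.3 CPM at MII, 22.9, 17.3 and 17.3 CPM at L1C and 42, 34.5 and 43.5 CPM at L2C. Its L2C libraries were the highest of the 9 inputs, with a log2 change from L1C of 1.06 ± 0.16 (adjusted p = 2.07e-05) and from MII of 0.67 ± 0.16 (adjusted p = 0.00105). Xrn2 had 138, 154 and 171 CPM at MII, 135, 109 and 107 CPM at L1C and 69.6, 55 and 67.7 CPM at L2C. All L2C libraries of Xrn2 were below the earlier stages, with a log2 change from L1C of -0.87 ± 0.14 (adjusted p = 4.52e-05). Up to L1C, Xrn1 fell by 0.39 ± 0.16 on the log2 scale (adjusted p = 0.0497) and Xrn2 by 0.40 ± 0.14 (adjusted p = 0.0233), and neither was called in a subset of 12 libraries (MII 1 and 2, L1C 1 and 2, L2C 2 and 3), 6 of them inputs (adjusted p = 0.332 and 0.24). The call of Xrn1 was also lost without any of the 3 MII inputs, L1C input 2 or 3, or L2C input 1 or 3 (adjusted p of 0.0592 to 0.142), with library size scaling (adjusted p = 0.0801) and with only those stages fitted (adjusted p = 0.0571), and that of Xrn2 without MII input 2 or 3 or L1C input 2 or 3 (adjusted p of 0.0565 to 0.0955).

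Upf1, the helicase of nonsense-mediated decay, was lowest at L1C. It had 13.2, 15.2 and 14 CPM at MII, 3.05, 6.41 and 5.01 CPM at L1C and 10.6, 10.9 and 12.8 CPM at L2C. Each L1C library was below every other library, and each L2C library was below each MII library. Its log2 change was -1.55 ± 0.23 (adjusted p = 6.6e-05) up to L1C, 1.25 ± 0.23 (adjusted p = 0.000154) from there to L2C, and -0.30 ± 0.22 (adjusted p = 0.21) between MII and L2C. The last value was called when only these stages were fitted (-0.37, adjusted p = 0.033) and was 0.20 (adjusted p = 0.392) when Upf1 was summed with Cers1 and Gdf1.

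The makeup of the group was also compared inside each library, where the scaling between libraries cancels. The log2 ratio of Dcp2 to Dcp1a, per kilobase of exon, was -4.96, -4.69 and -4.56 in the MII inputs, -1.36, -1.66 and -1.81 in the L1C inputs and 0.38, -0.06 and 0.43 in the L2C inputs. Dcp1a thus stood 26.8-fold above Dcp2 in MII oocytes and 3.08-fold at L1C, and in the L2C inputs the pair was near parity. The ratio of Edc4 to Dcp1a did not separate MII from L1C (means -0.50 and -0.39) and was higher at L2C, at 1.00 ± 0.09 (SD, n = 3). The paralogs Dcp1b and Dcp1a had a log2 ratio of -8.16 ± 0.11 in MII oocytes, -6.70 ± 0.06 in L1C embryos and -7.26 ± 0.18 in L2C embryos, with Dcp1a at least 104-fold higher on average in the inputs of each stage. The ratio of Xrn2 to Xrn1 was the same at MII and L1C (4.84 at each) and lower at L2C (2.90). In the exonic counts of Ctrl embryos, of the same stage as L2C, the ratios were 2.04 ± 0.10 for Dcp2 to Dcp1a, -1.36 ± 0.37 for Edc4 to Dcp1a, -4.73 ± 0.37 for Dcp1b to Dcp1a and 2.96 ± 0.10 for Xrn2 to Xrn1. The last was close to the L2C inputs, and that of Edc4 to Dcp1a had the opposite sign. The smallest p that 3 libraries against 3 allow in a two-sided exact permutation test is 0.1, so that none of the 15 stage comparisons of these ratios can pass a threshold of 0.05.

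**Figure D2:**
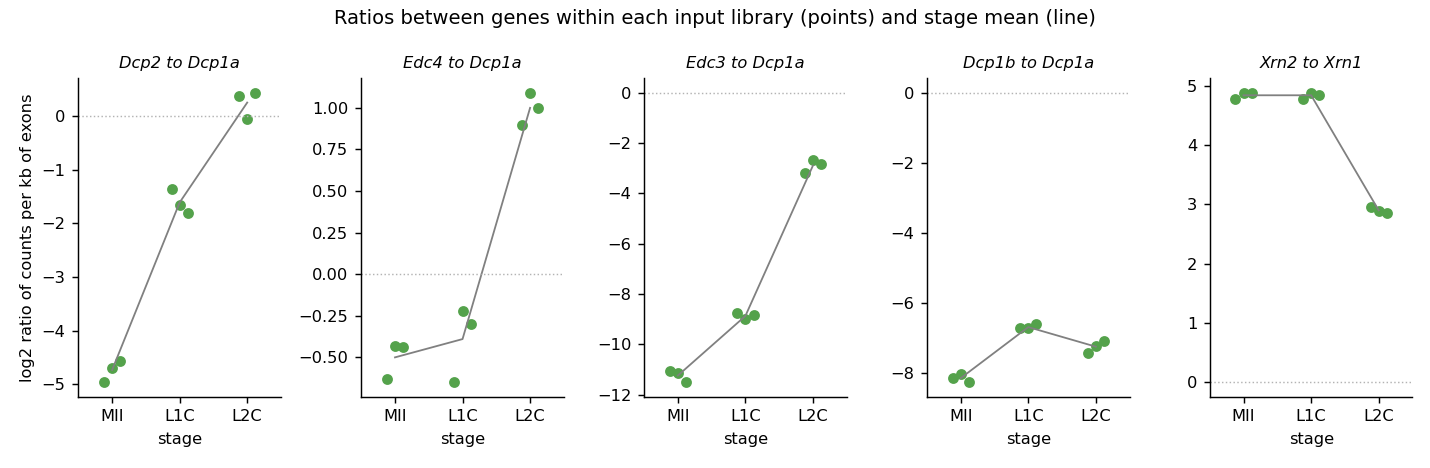
Log2 ratios of 5 gene pairs, per kilobase of exon, in each SLIM-seq input at MII, L1C and L2C. Points are libraries, solid lines join stage means and the dotted line marks equal levels. The ratio of Dcp2 to Dcp1a climbs from a mean of -4.73 to 0.25, while that of Xrn2 to Xrn1 falls at L2C.

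The IP libraries were then used to ask which of these mRNAs carry m6A. IP/input is the log2 ratio of IP to input CPM scaled over the 18 libraries, and therefore an enrichment relative to other mRNAs rather than a share of molecules. With the count, fold and p thresholds of the study, but in edgeR and not DESeq2 and without its rules for missing p-values and for single replicates, a gene was called m6A-tagged at a log2 above 0 and an unadjusted p under 0.05 with more than 1 count in each input, and depleted below 0 at the same p. At MII, 2 of the 8 were tagged (Dcp2, Upf1) and 4 depleted (Dcp1a, Dcp1b, Edc4, Xrn2), beside 20.7% and 28.9% of 16118 protein-coding genes. At L1C, 1 was tagged (Upf1) and 3 were depleted (Dcp1a, Edc3, Edc4), beside 19.5% and 26%. At L2C, 2 were tagged (Xrn1, Upf1) and the same 3 depleted, beside 24% and 29.5%. Scaling by library size alone tagged 4 at L1C, adding Dcp1b, Dcp2 and Xrn1 and losing the depletion of Edc3, and 5 at L2C, adding Dcp1b, Dcp2 and Xrn2. That scaling tagged 5393 and 5722 of the 16118 protein-coding genes at L1C and L2C, where the main fit tagged 3140 and 3866.

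Upf1 was tagged at all stages, on span counts that at L2C were 36.8-fold below the exonic counts of Ctrl embryos. At MII it had 16.1, 18.3 and 16.6 CPM in the inputs and 73.3, 66.8 and 75.9 CPM in the IPs. At L1C the inputs held 3.49, 7.28 and 5.63 CPM and the IPs 13.7, 13 and 21.3 CPM, and at L2C the inputs 10.3, 10.3 and 12.4 CPM and the IPs 35.6, 39.7 and 28 CPM. Each IP was above each input of its stage. IP/input was 2.08 ± 0.22, 1.56 ± 0.23 and 1.64 ± 0.21 (SE, adjusted p = 2.89e-07, 2.57e-05 and 6.35e-06), at percentiles 96.3, 96.7 and 96.4 of protein-coding genes. With Upf1 summed with Cers1 and Gdf1, IP/input was 2.06, 1.52 and 1.19. Its difference between L2C and MII was not called (-0.44 ± 0.30, adjusted p = 0.334), but it was with only those stages fitted (-0.61, adjusted p = 0.0398) and when summed with Cers1 and Gdf1 (-0.87, adjusted p = 0.0431).

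By this rule Dcp2 was tagged in the oocyte and not later, except that scaling by library size alone, which shifts the median gene by 0.16 to 0.29, tagged it at L1C and L2C too (0.45 and 0.44). Its MII inputs held 96.9, 106 and 112 CPM and its MII IPs 264, 224 and 258 CPM, without overlap. At L1C the inputs had 296, 248 and 244 CPM and the IPs 302, 275 and 292 CPM, which overlapped, and at L2C the inputs had 90.1, 70.4 and 93.1 CPM and the IPs 93.6, 102 and 92.7 CPM. IP/input was 1.25 ± 0.12 at MII (adjusted p = 1.05e-07), 0.14 ± 0.12 at L1C (adjusted p = 0.384) and 0.18 ± 0.12 at L2C (adjusted p = 0.223). The difference was tested as an interaction of stage and IP over all 18 libraries. IP/input of Dcp2 was lower at L1C than at MII (log2 difference -1.10 ± 0.17, adjusted p = 0.000305) and lower at L2C than at MII (-1.06 ± 0.17, adjusted p = 0.000167). Between L1C and L2C it differed by 0.04 ± 0.17 (adjusted p = 0.93).

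Dcp1a and Edc4, the most abundant of the group at MII and L1C, were depleted from every IP. Dcp1a had 2843, 2582 and 2482 CPM in the MII inputs against 312, 360 and 303 CPM in the IPs, 720, 741 and 810 against 237, 236 and 234 CPM at L1C, and 65.3, 69.5 and 65.2 against 29.2, 24 and 26.5 CPM at L2C. No IP reached an input. IP/input of Dcp1a was -3.02 ± 0.11, -1.68 ± 0.11 and -1.32 ± 0.11 (adjusted p = 1.49e-12, 1.52e-09 and 2.19e-08). The depletion was smaller after fertilization, by a log2 of 1.34 ± 0.15 at L1C against MII (adjusted p = 9.88e-06) and 1.70 ± 0.15 at L2C against MII (adjusted p = 3.15e-07). Edc4 had 1224, 1283 and 1224 CPM in the MII inputs and 146, 175 and 141 CPM in the IPs. At L1C its inputs were 306 to 439 CPM and its IPs 58.6 to 62.8 CPM, and at L2C 81.7 to 98.6 and 9.13 to 13.2 CPM. IP/input of Edc4 was -3.02 ± 0.15, -2.68 ± 0.15 and -2.94 ± 0.16, among the lowest 2% of protein-coding genes at MII and the lowest 0.6% and 0.5% at L1C and L2C, and summed with Nrn1l it was less negative, at -2.30, -1.99 and -1.95. The differences of Edc4 between stages were at most 0.34 in size, none of which was called (adjusted p of 0.379 to 0.887).

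Xrn1 was not called at MII or L1C and was tagged at L2C. Its L2C inputs held 40.7, 32.7 and 42.1 CPM and its IPs 60.7, 74.3 and 65.2 CPM, without overlap, for an IP/input of 0.79 ± 0.14 (adjusted p = 0.000189). At MII and L1C IP/input was 0.04 ± 0.14 at each, and the libraries overlapped. With library size scaling Xrn1 was tagged at L1C too (0.34). The difference was 0.75 ± 0.20 between L2C and MII (adjusted p = 0.0125) and 0.75 ± 0.20 between L2C and L1C (adjusted p = 0.0248). The latter was not called under the replicate block (adjusted p = 0.0687), without L1C input 1, L1C IP 3, L2C input 2 or L2C IP 2 (adjusted p of 0.0528 to 0.0767), without the filter (adjusted p = 0.0535), with only those stages fitted (adjusted p = 0.113) or in the subset of 12 libraries (adjusted p = 0.0868).

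Of the other genes, Xrn2 was depleted at MII, at -0.37 ± 0.14 (adjusted p = 0.0455), and not called at L1C (-0.04 ± 0.14) or L2C (0.21 ± 0.14, and tagged there at 0.46 with library size scaling). At MII its inputs were 169 to 204 CPM and its IPs 114 to 163 CPM, and the call was lost with DESeq2 (-0.30, adjusted p = 0.112), with only MII fitted (-0.31, adjusted p = 0.0958) and with library size scaling (-0.13, adjusted p = 0.53), and without MII input 3 or MII IP 2 (adjusted p = 0.166 and 0.237). Dcp1b went from -0.65 ± 0.18 at MII (adjusted p = 0.00756) to 0.12 ± 0.18 at L1C and 0.58 ± 0.26 at L2C (adjusted p = 0.117), where it had 7 to 27 counts per library. With library size scaling Dcp1b was tagged at L1C (0.42) and L2C (0.83), and at L2C also when summed with Cacna1c (0.94). Edc3 was at -0.43 ± 0.33, -0.77 ± 0.29 and -1.05 ± 0.24 (adjusted p = 0.333, 0.0444 and 0.00146), on 6 to 24 counts per library at MII and L1C. Its call at L1C was lost with library size scaling (-0.47, adjusted p = 0.18), without the filter (adjusted p = 0.195) and in the subset of 12 libraries (-0.65, adjusted p = 0.227), and summed with Clk3 it was depleted at MII (-0.79).

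For the change of IP/input from MII to L1C, 1 of the 8 genes was higher (Dcp1a) and 1 lower (Dcp2), against 3.82% and 5.04% of protein-coding genes. From L1C to L2C, 1 was higher (Xrn1) and 0 lower, against 6.09% and 5.42%. Without adjustment, edgeR had Dcp1a below 0.05 beside Xrn1 as higher and again 0 as lower, and DESeq2 called 0 lower. Between MII and L2C, 4 were higher (Dcp1a, Dcp1b, Xrn1, Xrn2) and 1 lower (Dcp2), against 13.5% and 11%. Over these 3 comparisons 5 of the 8 were called at least once, beside 29.4% of protein-coding genes. In the subset of 12 libraries, Dcp1a, Dcp2 and Xrn1 were called between MII and L2C, and Dcp1b and Xrn2 were not (adjusted p = 0.111 and 0.0862). With library size scaling Dcp1b was also called higher from MII to L1C (0.84, adjusted p = 0.0448). From MII to L2C it was not called without the filter (adjusted p = 0.11). Xrn2 was also not called under the replicate block (adjusted p = 0.0607), with DESeq2 (0.0792), library size scaling (0.0518), no filter (0.0974) or only those stages (0.168), or without MII input 2 or 3, MII IP 1 or 2, L2C input 2 or 3, or any of the 3 L2C IPs (adjusted p of 0.0571 to 0.136).

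**Figure D3:**
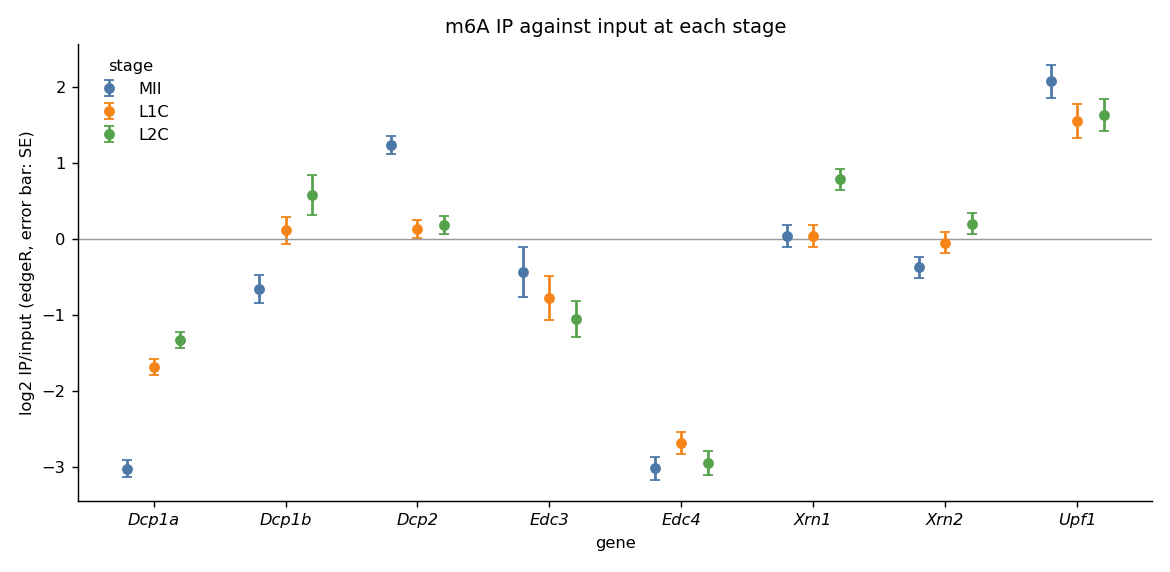
IP/input of the 8 genes on the log2 scale at MII, L1C and L2C, with bars of 1 SE from the fit of 18 libraries. Upf1 lies above 0 and Dcp1a and Edc4 below 0 at every stage, Dcp2 is highest at MII (1.25) and Xrn1 at L2C (0.79).

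Partners of these enzymes were described from lists of 32 other genes. Their counts stand beside the shares of protein-coding genes that rose and fell, 31.4% and 27.6% from MII to L1C and 44.2% and 39.4% from L1C to L2C. Among 15 activators of decapping and P-body factors, 4 rose and 6 fell from MII to L1C, 5 rose and 9 fell from L1C to L2C, and the medians were -0.19 and -0.71. Lsm6, of the Lsm ring that binds deadenylated mRNA, rose up to L1C with a log2 change of 1.97, and Lsm3 of the same family fell by 2.74 from L1C to L2C on the log2 scale. Eif4enif1, which holds mRNA with eIF4E in P-bodies, was listed at 0 in all 3 L2C inputs against 393 CPM or more in L1C inputs. It had 148 CPM of exonic reads in Ctrl embryos of the same stage, and summed with the genes it overlaps its change from L1C was -0.22 (adjusted p = 0.0816), so no fold is given for it. Its fall is counted among the 9 and was not called in that sum. Lsm4 rose by 3.36 from MII to L2C on the log2 scale, and Patl2, an oocyte mRNA-binding factor, was 21.2-fold lower, a change that was -1.96 in log2 when summed with the genes it overlaps. From L1C to L2C the log2 change of Patl2 was -2.65 alone and -0.35 when summed in this way. Among 9 partners of Upf1 in nonsense-mediated decay, 1 rose and 5 fell from MII to L1C. From L1C to L2C, 8 of the 9 rose, beside 44.2% of protein-coding genes, with a median of 0.74 beside 0.15. Smg8 and Smg6 fell by 2.44 and 2.09 up to L1C on the log2 scale, and Smg5, an adaptor of RNA decay, rose by 3.84 from L1C to L2C and by 4.76 from MII to L2C. Smg5 had 284 CPM over the span in L2C inputs but 33.6 CPM over exons in Ctrl embryos, and Smg9 14.8 and 0.965 CPM, so both rest on span counts that exonic counts did not match in level. Of the 4 partners of Xrn2, 1 rose (Nkrf, 1.40) and 2 fell up to L1C, and 2 fell from L1C to L2C. Of 4 other enzymes that remove or clear caps, 2 fell up to L1C, and 2 rose, among them Nudt3 (3.73), and 2 fell from L1C to L2C. In the IP, 10 of the 32 were tagged and 12 depleted in MII oocytes, 11 tagged and 8 depleted in L1C embryos, and 15 tagged and 6 depleted in L2C embryos. The shares of protein-coding genes tagged were 20.7%, 19.5% and 24%, and those depleted 28.9%, 26% and 29.5%. Smg5 was depleted at all 3 stages (-2.25, -1.68 and -2.38), and Nkrf, a partner of Xrn2, was tagged at all 3 (2.69, 2.00 and 1.87), on at most 56 input counts per library. The other partners furthest from 0 were Pnrc1, an activator of decapping, at 1.57 at MII and 1.13 at L1C, Lsm5 at 1.27 at L2C (adjusted p = 0.0671), Smg9 at -1.40 at MII and -1.79 at L2C, and Ttf2, which releases RNA polymerase, at -1.48 at L1C. Lsm5 and Nkrf also differed in level between span and exon counts, at 0.517 against 7.12 CPM and 1.35 against 12.1 CPM.

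The knockdown asked whether these mRNAs depend on Ythdc1 in 2-cell embryos. Over the 5 libraries with the whole annotation, 3 of the 8 were higher in KD (Edc3, Xrn2, Upf1) and 2 lower (Dcp1b, Dcp2), against 33% and 35.1% of 12897 protein-coding genes. Of these, Edc3 passed the filter on low counts through KD alone and Dcp1b through Ctrl alone, so their calls rest on the group where each is high. In the merged table of 6 libraries, 1 of the 1 tested was higher (Xrn2), against 35.6% higher and 36.5% lower of 5661 genes.

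Dcp2 was lower in KD. It had 153, 148 and 143 CPM in Ctrl and 117 and 112 CPM in KD, without overlap, for a log2 change of -0.36 ± 0.09 (SE, adjusted p = 0.00141). Dcp1a had 34.5, 32.1 and 35.4 CPM in Ctrl and 34.3 and 28.4 CPM in KD, which overlapped (-0.11 ± 0.12, adjusted p = 0.409).

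Dcp1b showed 11, 15 and 10 counts in Ctrl and 0 and 0 in KD libraries 1 and 2, with 1 count in KD library 3. Every KD library was below every Ctrl library. Cacna1c, whose span Dcp1b overlaps, averaged 1.54 CPM in Ctrl and 0.231 CPM in KD over the 5 libraries. Summed with Cacna1c, the log2 change of Dcp1b there was -3.32 ± 0.65 (SE, adjusted p = 0.000324). Against the limit of 3 counts over the group of KD libraries 1 and 2, Dcp1b was at least 6.93-fold lower, with the Ctrl counts taken as exact. The edgeR fit of the 5 libraries, which does not test that limit, gave an adjusted p of 0.000397. Dcp1b passed the filter of that fit through Ctrl alone, the group where it is high. Without Ctrl 2 or Ctrl 3 it did not pass and was not tested. With all 6 libraries of the merged table, 1 count of 13557155 against 36 of 13582813 gave a ratio of 35.9, with a 95% exact interval of 6.05 to 1460 that covers counting error only. The gene is too low there to pass the filter of edgeR.

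Upf1 and Xrn2 were higher. Upf1 had 423, 399 and 482 CPM in Ctrl and 485 and 665 CPM in KD (0.40 ± 0.11, adjusted p = 0.00425). The lower KD library exceeded the highest Ctrl library only slightly, and without KD 2 the change was 0.17 (adjusted p = 0.194). That fit has 1 KD library, which is assumed to vary like the Ctrl libraries. Xrn2 had 252, 263 and 243 CPM of the merged table in Ctrl and 309, 313 and 300 CPM in KD, all above Ctrl, for 0.28 ± 0.07 (adjusted p = 0.00139). Over the whole annotation its change was 0.30 ± 0.09 (adjusted p = 0.00567).

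Xrn1, with 61.8, 61.9 and 51.5 CPM in Ctrl and 60.3 and 53.2 CPM in KD, overlapped between the groups (-0.04 ± 0.11, adjusted p = 0.737). Edc4, with 7 to 12.3 CPM in Ctrl and 9.42 to 9.9 CPM in KD, overlapped as well (0.11 ± 0.23, adjusted p = 0.673). Edc3 had 9, 4 and 2 counts in Ctrl and 13 and 16 in KD, and passed the filter of edgeR through KD alone, the group where it is high. Its log2 change was 1.82 ± 0.56 (adjusted p = 0.00897), and 0.33 ± 0.15 (adjusted p = 0.0578) when summed with Clk3. The change was not called under the replicate block (1.62, adjusted p = 0.0729), and was 1.58 without KD 2, which leaves 1 KD library. Of the 5 genes called, Edc3 and Dcp1b changed by more than 2-fold, the limit the study set.

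**Figure D4:**
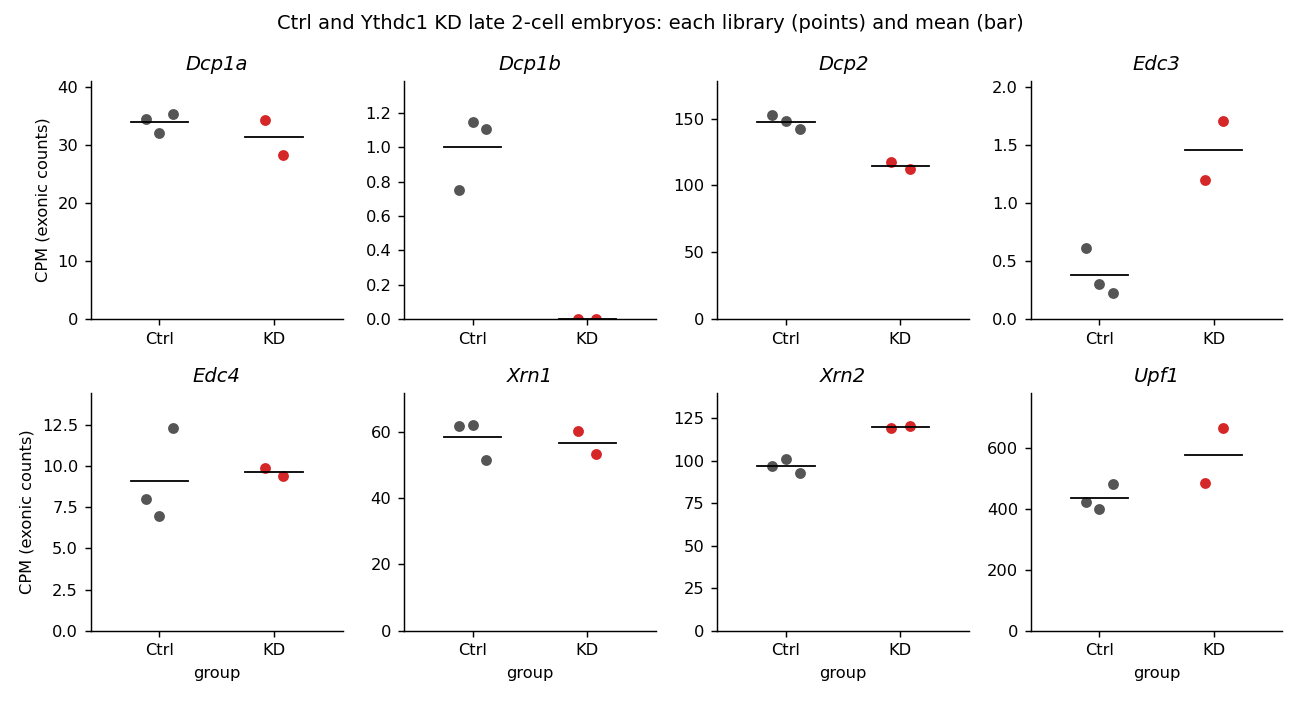
CPM of exonic counts for the 8 genes in Ctrl and KD 2-cell embryos, on linear axes that start at 0, over the 5 libraries that cover the whole annotation. Points are libraries and bars are means. Dcp2 is lower in both KD libraries (117 and 112 CPM), Upf1 and Xrn2 are higher, and Dcp1b was counted at 0 in both.

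Beside the 33% of protein-coding genes that were higher in KD and the 35.1% that were lower, the partner lists had these counts. Of the 9 partners of Upf1, 5 were higher in KD, among them Smg8 and Upf3b, and 1 was lower (Upf3a), with a median log2 change of 0.47 beside -0.03 for protein-coding genes. Smg8 changed by 1.22 ± 0.12 (adjusted p = 4.47e-07). Among the 15 decapping activators, 6 were higher (Lsm2, Lsm3, Lsm4, Lsm5, Lsm6, Lsm7) and 2 lower (Lsm14b, Pnrc1), with a median of 0.08. In the merged table of 6 libraries, which holds 7 of the 15, 2 were higher (Lsm3, Lsm5) and 3 lower (Lsm14b, Pnrc1, Pnrc2), with a median of -0.14. There, 3 of 5 partners of Upf1 were higher and the other 2 were not called. The partners of Xrn2 split, with 1 higher and 2 lower of 4, and of the 3 cap enzymes tested 1 was lower, Dcps, which clears the cap fragments left by decay.

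The 2 experiments gave unlike levels for part of the group at the same stage. In L2C inputs, counted over gene spans, Upf1 had 12.1 CPM, and in Ctrl embryos, counted over exons, 444 CPM, 36.8-fold apart. Only 0.2% of the 7717 protein-coding genes above 5 CPM in both lay further to that side. Edc3 was 18.2-fold and Edc4 10.5-fold higher over the span than over exons, at percentiles 99.1 and 97.1 of the same genes. Edc3 itself, at 0.387 CPM over exons, is below that limit. Dcp1a, Dcp1b, Dcp2, Xrn1 and Xrn2 were within 2.77-fold. Over 7717 protein-coding genes above 5 CPM in both, the log2 difference had a median of 0.10 and an SD of 1.70, with a correlation across genes of r = 0.54, and 23% were more than 4-fold apart. Injection and the counting of reads differ together between the experiments and cannot be told apart. The stage changes and the IP/input values of Upf1, Edc3 and Edc4 rest on span counts that the exonic counts did not match in level.

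**Figure D5:**
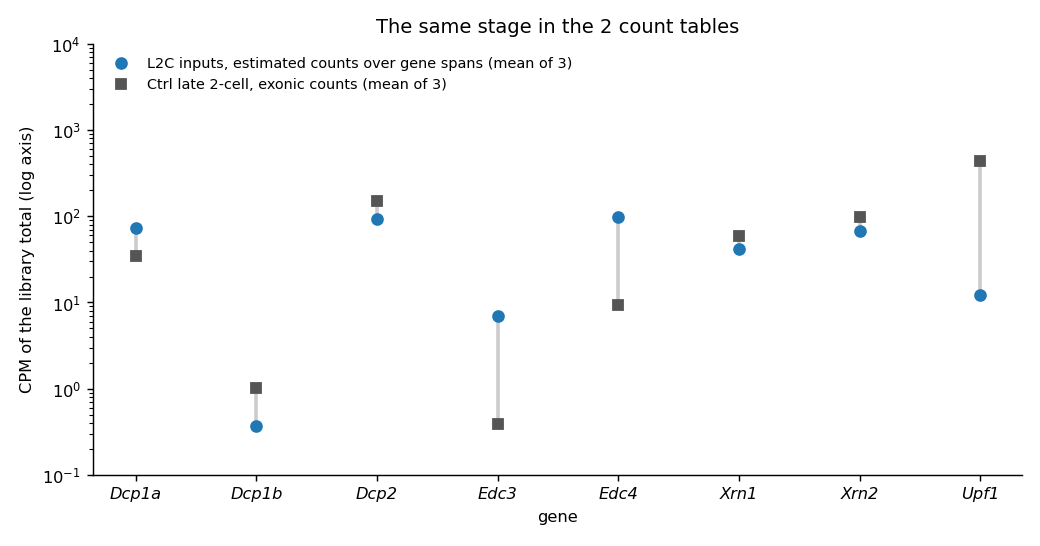
Mean CPM of the 8 genes at the late 2-cell stage, on a log axis, over gene spans in 3 L2C inputs (circles) and over exons in 3 Ctrl libraries (squares), with a line joining both values of a gene. Upf1 is 36.8-fold lower over the span, and Edc3 and Edc4 are 18.2-fold and 10.5-fold higher.

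The genes whose log2 CPM followed each member most closely across the 18 SLIM-seq libraries are given as a description, since libraries of a stage share their sample type. Among 15138 genes, Dcp1a was followed by Zbtb8b (r = 0.996) and E2f2 (0.995), Edc4 by Ptcd1 and Trafd1 (0.997 each), and Dcp1b by Steap4 (0.994) and Epsti1 (0.99). Dcp2 was followed by C130060K24Rik and Commd8 (0.981 each), Edc3 by Msto1 and Cx3cl1 (0.991 each) and Upf1 by Sp110 (0.973) and Wwc2 (0.965). Xrn1 was followed by Ascc3 (0.964) and Ggnbp2 (0.96), and Xrn2 by Morf4l2 (0.983) and Lrrc8b (0.981). Within the group, r was highest between Dcp1a and Edc4 (0.946), 0.873 between Dcp1a and Dcp1b and 0.333 between Dcp1a and Dcp2, and lowest between Edc3 and Xrn2 (-0.914).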

How the data were processed

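Samples were grouped by their labels. For SLIM-seq the authors deposited estimated counts and TPM from kallisto, with each whole gene span (introns included) as a target, on GRCm38. For all libraries the labels name polyA RNA and a stranded total RNA kit, while the study's methods describe oligo-dT primed cDNA and Tn5 for both experiments. For the knockdown the authors used Trimmomatic on the reads, HISAT2 to place them on the genome and featureCounts, and deposited raw counts over the exons of each gene, with no strand setting given. The merged table and KD replicate 3 hold part of the annotation, so that the other genes were tested in 2 KD and 3 Ctrl libraries.

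Estimated counts were rounded. Tests used edgeR 4.0.16 in R 4.3.3 (TMM scaling, filterByExpr, quasi-likelihood test), with Benjamini-Hochberg adjustment over all genes tested, 19903 for inputs, 21950 for IP/input, 17074 for the knockdown and 7433 for the merged table. Each adjusted p is from edgeR unless DESeq2 (1.42.0, an alternative) is named, and calls use 0.05. All stages share a fit, and differences of IP/input between stages are interaction terms. Levels per kilobase and span against exon use library totals without TMM. Likeness is Pearson's r of log2(CPM + 1) over genes with a mean of at least 10 counts. The statistics were checked on simulated data.

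The genes, partners and markers were chosen with earlier results of these data known. Partners were named by a rule, as the largest 2 changes in each direction among those called, and others were named after their values were seen. Sums with overlapping genes, and fits of a subset of 12 libraries (MII 1 and 2, L1C 1 and 2, L2C 2 and 3), were added after the data were seen. The subset has the replicate numbers of a note on quality control that follows the study's proteomics deposit and is not known to refer to SLIM-seq. The study's text says that IP and input RNA shared batches, but not that replicate numbers mark them. Same-numbered samples did not deviate together (correlations from -0.318 to 0.309), so the block was kept as an alternative. Sequences come from GENCODE M21 and GRCm38, and the crRNAs from the study's supplement.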

Additional observations from a re-analysis of the deposited data

Results flagged for a closer look

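The ratio of IP to input differed between stages for 5 of the 8 genes in at least 1 of 3 comparisons, beside 29.4% of 16118 protein-coding genes, by the test of the difference itself (the interaction of stage and IP in edgeR over 18 libraries). Dcp1a was less depleted at L1C than at MII, by a log2 of 1.34, and at L2C than at MII, by 1.70. Dcp2 lost enrichment in both comparisons, by -1.10 and -1.06. Xrn1 was more enriched at L2C than at L1C and than at MII, by 0.75 in each. Dcp1b and Xrn2 were higher at L2C than at MII, by 1.24 and 0.57. The differences of Dcp1a and Dcp2 from MII remained past the threshold in the subset of 12 libraries, and those of Dcp1b, Xrn2 and, against L1C, Xrn1 did not. The comparisons against MII share the MII libraries. Upf1, not called here between L2C and MII, was called with only those stages fitted and when summed with overlapping genes, as given with the results. No cause of these differences was tested.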

How the results depend on the processing

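Of the calls on the 8 genes, the number at L2C in IP/input went from 5 to 8 with library size scaling, and that at L1C from 4 to 6. Of 16118 protein-coding genes, that scaling tagged 5722 and depleted 3450 at L2C (3866 and 4756 in the main fit). At L1C these were 5393 and 2726 (3140 and 4193 in the main fit). The single call for the change of IP/input from L1C to L2C (Xrn1) was lost, leaving 0, without the filter, with only the stages compared, under the replicate block and in the subset of 12 libraries, and ranged from 0 to 1 when a library was left out. That from MII to L2C went from 5 to 3 without the filter and in the subset of 12 libraries. The 2-fold rule of the study left 0 of 1 call in the merged knockdown table and 2 of 5 over the whole annotation, where leaving out a library gave 3 to 5. In deposited TPM the highest gene at MII and L1C was Edc4 instead of Dcp1a, 1.62-fold and 1.77-fold above it, and at L2C Edc4 stood 3.38-fold above the next gene.

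Directions turned for values that were not called, and for Edc3 when summed with Clk3, where an uncalled rise up to L1C became a called fall (adjusted p = 0.000393) and the called rise from MII to L2C a called fall. Summing with overlapping genes gave -0.66 and -0.47 for Edc3 from MII to L1C and to L2C, 0.22 for its IP/input change up to L1C, 0.20 for Upf1 from MII to L2C, and 0.04 for Edc4 and -0.33 for Upf1 in the IP/input change from L1C to L2C. Dcp2 from MII to L2C was -0.05 without the filter and with only those stages (-0.07 to 0.11 without any 1 library). IP/input at L1C was 0 for Xrn2 with DESeq2 and 0.26 with library size scaling, and 0 for Xrn1 in the subset of 12 libraries. For the change of IP/input, Xrn1 up to L1C was 0.06 with library size scaling and 0.01 under the replicate block. From L1C to L2C, Dcp2 was 0 with DESeq2 and without the filter, -0.01 with library size scaling and -0.14 with only those stages, where Upf1 was -0.10. From MII to L2C, Edc4 was -0.01 with DESeq2, -0.10 with only those stages and -0.15 in the subset of 12 libraries. Leaving out a library gave -0.03 to 0.14 for IP/input of Xrn1 at MII, -0.04 to 0.19 for Xrn1 and -0.13 to 0.07 for Xrn2 at L1C. It gave -0.11 to 0.15 for the IP/input change of Xrn1 up to L1C, -0.08 to 0.11 for Dcp2 and -0.19 to 0.34 for Upf1 from L1C to L2C, and -0.04 to 0.19 for Edc4 from MII to L2C. In the knockdown, where leaving out a KD library leaves 1 that is assumed to vary like Ctrl, it gave -0.25 to 0.03 for Dcp1a, -0.05 to 0.36 for Edc4 and -0.13 to 0.05 for Xrn1. The cause was not tested. The block changed no other call than those of Xrn1, Xrn2 and Edc3 given with the results.

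Among protein-coding genes, library size scaling raised the share of IP/input calls that are tagged from 41.8%, 42.8% and 44.8% to 56.8%, 66.4% and 62.4%, and the share of higher calls for the IP/input change up to L1C from 43.1% to 54.1%. From L1C to L2C that scaling lowered the share of higher calls from 52.9% to 44.6%. DESeq2 gave 43.2% there, and 47.7% from MII to L2C, where edgeR gave 55.1%. With only the stages compared, the share of higher calls for the IP/input changes went from 43.1%, 52.9% and 55.1% to 29.3%, 24.1% and 37.7%, and with no filter the L1C to L2C share went from 52.9% to 40.9%. The block called 341 higher and 610 lower for the change up to L1C (616 and 812 without it) and 538 and 497 from L1C to L2C (981 and 874). In the subset of 12 libraries these calls were 141 and 383 up to L1C (26.9% higher), 285 and 316 from L1C to L2C, and 1265 and 1253 from MII to L2C (2172 and 1767 in all libraries). Without L1C IP 3 or L2C IP 3 the L1C to L2C calls were 653 and 556, or 603 and 523. Over all fits that leave out 1 library, these calls were 603 to 1023 higher and 523 to 917 lower. Up to L1C such fits gave 390 to 600 higher and 661 to 800 lower calls. Levels under about 20 counts per library, as for Edc3 and Dcp1b, are limited by depth.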
